A study of Mus musculus with 6 samples.

Results

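Fatty acid oxidation and ketone synthesis in the neonatal mouse liver were followed through 46 genes listed by symbol, from fatty acid uptake to the last enzymes of the ketone route. All 46 symbols were found among the 24489 gene entries of the deposited table, and 45 of them had enough reads to be tested. RNA sequencing had been done on 3 libraries from Jag1Ndr/Ndr livers and 3 libraries from Jag1+/+ livers. Jag1Ndr/Ndr mice are homozygous for the Nodder allele of Jag1, a missense allele of a Notch ligand, and are used to model Alagille syndrome, a disorder with few bile ducts. Jag1+/+ mice carry wild-type Jag1. Both groups had the strain background C3H/C57bl6J, were untreated and were sampled at postnatal day 10, with polyA RNA from a single lobe per library. The labels do not say whether the replicates were separate animals, so p-values measure the spread between these libraries, which may be technical.

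Liver burns fatty acids in a fixed order of steps. Fatty acids are taken up, tied to coenzyme A by acyl-CoA synthetases, carried into mitochondria as carnitine esters and shortened by the beta-oxidation spiral, which hands electrons to the electron transfer flavoprotein. Very long and branched chains are first shortened in peroxisomes, and surplus acetyl-CoA leaves the liver as ketone bodies. Suckling mice live on milk fat, so both routes are in heavy use in neonatal liver, and many of the genes are targets of the nuclear receptor PPAR alpha.

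The enzymes of oxidation and ketone synthesis, grouped after their values were seen, lay mostly lower in Jag1Ndr/Ndr livers. The ketone enzyme Acat1 was furthest down among the members that passed the test, while thioesterase Acot1 and synthetase Acsl4 were higher. Acat1, Acsl1, Hadh, Etfdh and Scp2 fell and Acsl4 and Acot1 rose, at an adjusted p under 0.05 by edgeR's quasi-likelihood test across the 13819 genes tested. That made 5 of 45 members lower (11.1%), against 2.90% of all genes tested, and 2 members higher (4.44%), against 4.73% of all genes tested. Members with a log2 fold change (Jag1Ndr/Ndr over Jag1+/+) below 0 numbered 34 of 45 (75.6%), against 49.5% of all genes tested. The median log2 fold change was -0.43 over the members and 0.004 over all genes. At an unadjusted p under 0.05, 22 members were lower (48.9%, against 9.50% of all genes tested) and 7 were higher (15.6%, against 13.0%). The 3 Jag1Ndr/Ndr libraries all lay below the 3 Jag1+/+ libraries for 25 members (55.6%, against 14.2% of all genes tested) and all above them for 7 members (15.6%, against 14.8%). Both counts use read counts scaled to library size, as described below. On the deposited RPKM, Jag1Ndr/Ndr replicate 2 lay above all Jag1+/+ libraries for some of the 25, such as Bdh1 (344.2 against 264.8 to 286 RPKM). That library still lay below them for others, such as Acat1 (243.8 against 323.6 to 407.5 RPKM).

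**Figure D1:**
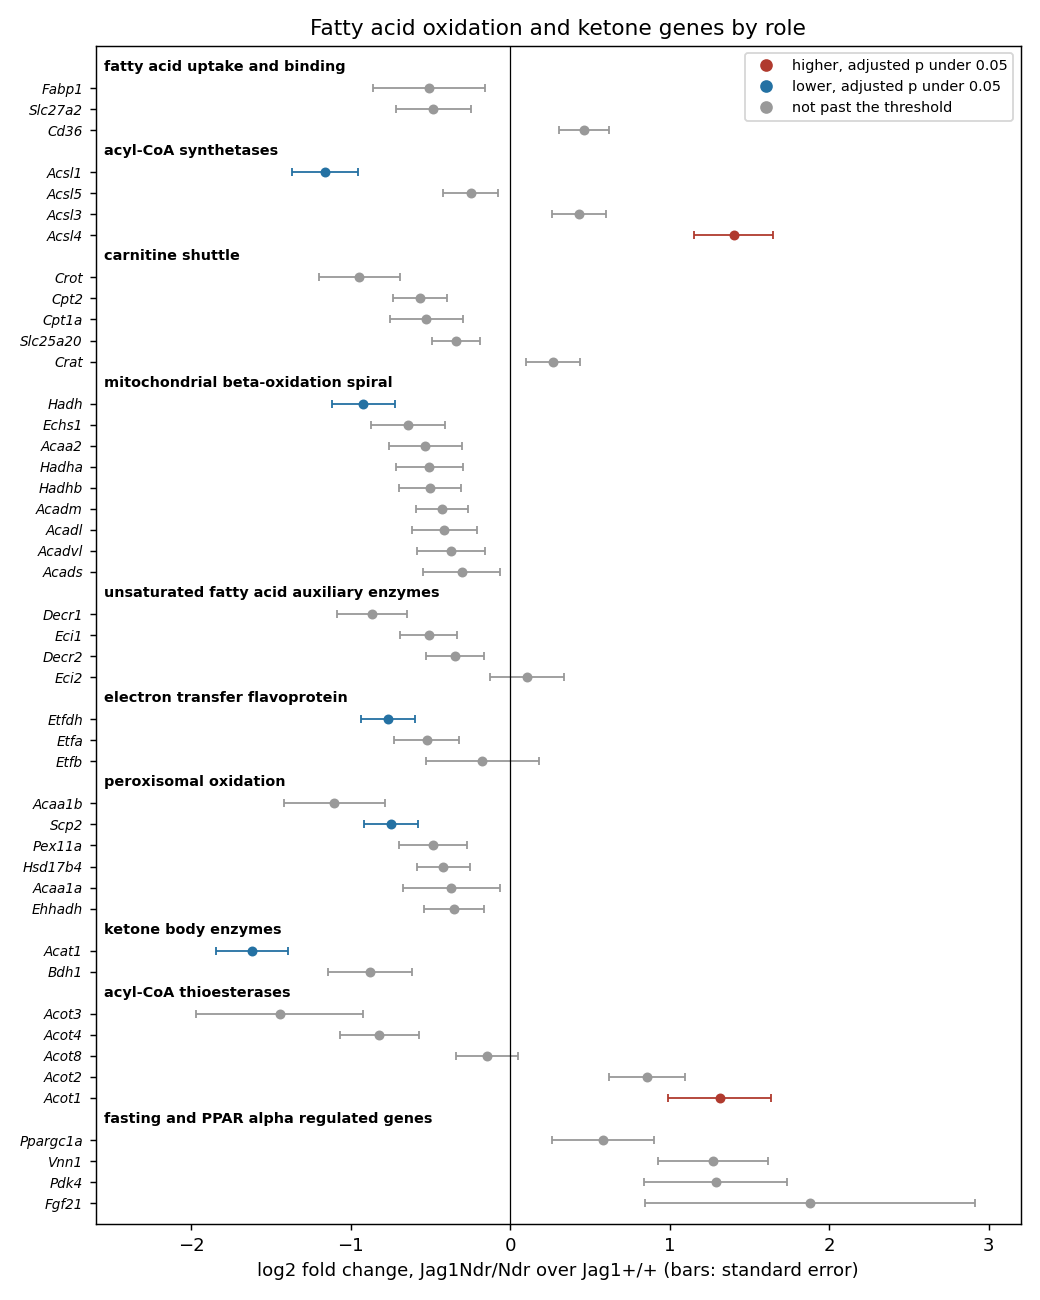
Log2 fold change (Jag1Ndr/Ndr over Jag1+/+) of the 45 tested members, grouped by role, with SE bars, red or blue points for the 7 members past the threshold and grey points for the others. Points of the spiral, the electron transfer flavoprotein, peroxisomal oxidation and the ketone enzymes all lie left of 0, and those of the fasting-regulated genes all lie right of 0.

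The count of members called lower depended on single libraries. With Jag1Ndr/Ndr replicate 1, 2 or 3 left out the count was 11, 12 or 2, and with Jag1+/+ replicate 1, 2 or 3 left out it was 2, 1 or 1. The same fits called 532, 404 or 333 of all genes lower with a Jag1Ndr/Ndr library left out, and 134, 127 or 138 with a Jag1+/+ library left out, against 401 with all 6 libraries. Of members called higher there were 1, 1 or 2 with those Jag1Ndr/Ndr libraries left out in turn, and 0 with any Jag1+/+ library left out. Of all genes, those fits called 679, 630 or 557 higher with a Jag1Ndr/Ndr library left out. With a Jag1+/+ library left out they called 208, 155 or 181 higher, against 653 with all 6 libraries. DESeq2 called 13 members lower, against 5.45% of all genes tested, and limma with sample quality weights called 17, against 4.66%. With a term for sex (1.66% of all genes lower) or with library totals alone (1.52%), the calls left among the 7 were Acat1 and Acsl1 as lower and Acsl4 as higher. On the deposited RPKM with limma they were Acat1 as lower and Acsl4 as higher. Acat1 was past the threshold in all 15 alternative fits, and the other 6 in 5 to 12 of them.

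**Figure D2:**
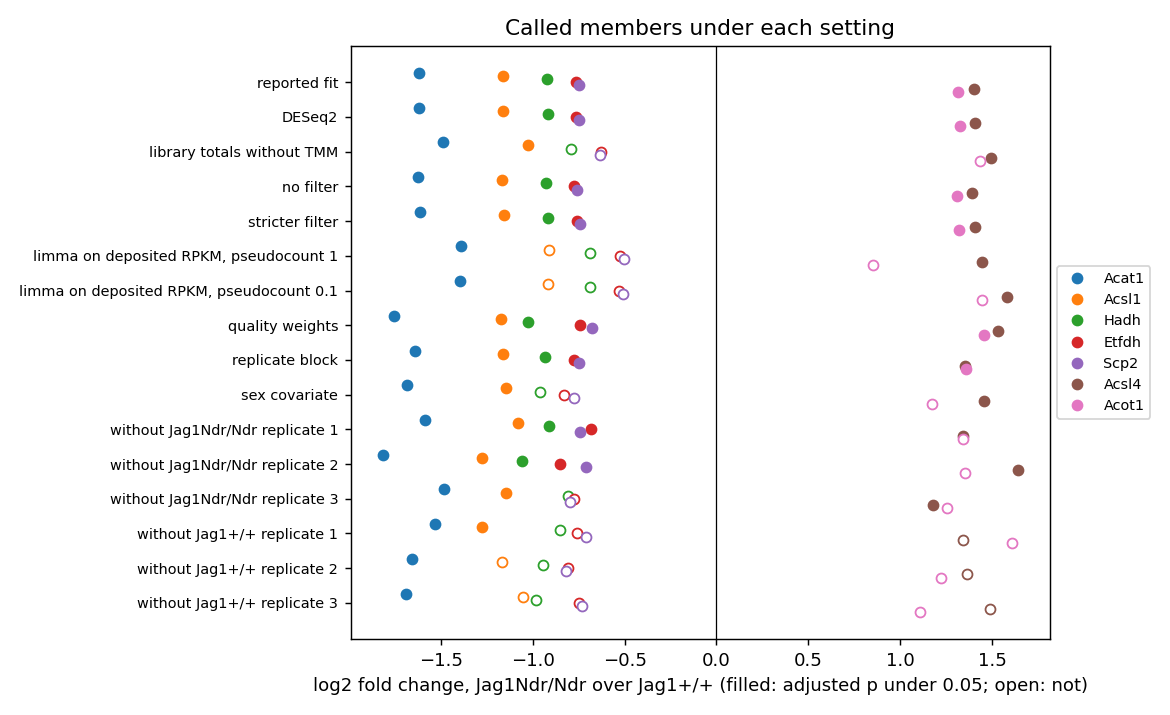
Log2 fold change (Jag1Ndr/Ndr over Jag1+/+) of the 7 members past the threshold in each of 16 fits, filled where the adjusted p is under 0.05. All 7 keep their sign in every fit, and Acat1 is filled in all of them.

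Levels are read counts scaled to library size, the CPM of edgeR with library sizes scaled by the trimmed mean of M values (TMM), in the order of replicates 1, 2 and 3. Overlap between the groups is stated on this scale throughout, and it can differ on the deposited RPKM. The libraries held 12992592, 59653111 and 17478916 reads in Jag1Ndr/Ndr livers, against 17548954, 32326157 and 40499166 reads in Jag1+/+ livers, so 3 reads amount to at most 0.266 CPM in any library. Jag1 averaged 4.845 ± 1.59 CPM in Jag1Ndr/Ndr livers and 5.96 ± 0.807 CPM in Jag1+/+ livers (SD, n = 3 each) and did not differ past the threshold (adjusted p = 0.638, edgeR), which does not check the labels, since a missense allele need not change the transcript's level. Reads of Xist and Y-linked genes marked Jag1Ndr/Ndr replicate 1 and Jag1+/+ replicates 2 and 3 as male and the other 3 libraries as female, so sex was not balanced. The summed level of 8 hepatocyte markers was 103600 to 184100 CPM in Jag1Ndr/Ndr livers, against 216800 to 223200 CPM in Jag1+/+ livers, and 1 of the 8 (Ttr) fell. Alb made up most of that sum, averaging 112800 CPM in Jag1Ndr/Ndr livers and 177700 CPM in Jag1+/+ livers. It did not pass the threshold (adjusted p = 0.214, edgeR). Of the 8 markers, 7 had a log2 fold change below 0, with a median of -0.29 over the 8, and Tat lay above 0 (0.95). Summed macrophage markers were 1387 to 2326 CPM in Jag1Ndr/Ndr livers, against 647 to 1141 CPM in Jag1+/+ livers, and 1 of 8 rose. Marco was the largest part of the sum in Jag1Ndr/Ndr replicate 1 (945.1 CPM). All 8 had a log2 fold change above 0, and the groups did not overlap for Cd68, Marco and Cd5l. They overlapped for Adgre1, Csf1r, Clec4f, Vsig4 and Timd4. Summed neutrophil markers were 1036 to 2301 CPM in Jag1Ndr/Ndr livers, against 611.4 to 737.2 CPM in Jag1+/+ livers, and 4 of 7 rose. Summed erythroid markers were 195.6 to 503.6 CPM in Jag1Ndr/Ndr livers, against 116.3 to 205.7 CPM in Jag1+/+ livers, and 2 of 6 rose. All 46 members together summed to 9821, 10470 and 7360 CPM in Jag1Ndr/Ndr livers, against 15190, 14200 and 14250 CPM in Jag1+/+ livers. Fewer hepatocytes and less of these RNAs per hepatocyte cannot be told apart in whole liver, and the part of the other cell types in the member values was not tested.

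Acat1, the mitochondrial acetoacetyl-CoA thiolase that makes the acetoacetyl-CoA from which ketone bodies are built, had 394, 528 and 335.5 CPM in Jag1Ndr/Ndr livers, against 1453, 1241 and 1172 CPM in Jag1+/+ livers. Every Jag1Ndr/Ndr library lay far below every Jag1+/+ library. Acat1 averaged 419 ± 98.6 CPM in Jag1Ndr/Ndr livers and 1289 ± 147 CPM in Jag1+/+ livers (SD, n = 3 each), a 3.075-fold fall with a log2 fold change of -1.62 ± 0.23 (SE) and an adjusted p of 0.00702 by edgeR. Across the 15 alternative fits its log2 fold change ran between -1.82 and -1.39, with an adjusted p between 9.48e-12 and 0.038. The gene lies at chr9:53580522-53610350 (GRCm38), and none of its 50-base words occurs in another gene's transcripts.

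Bdh1, which reduces acetoacetate to beta-hydroxybutyrate, the main ketone body in blood, had 478, 684.5 and 335 CPM in Jag1Ndr/Ndr livers, against 928, 948 and 881 CPM in Jag1+/+ livers. The groups did not overlap, but the Jag1Ndr/Ndr libraries were spread widely, with replicate 2 highest and replicate 3 lowest, and the log2 fold change of -0.88 ± 0.26 (SE) missed the threshold in edgeR (adjusted p = 0.0836). Bdh1 passed it in DESeq2 (adjusted p = 0.00858), in limma with quality weights (0.0105) and in edgeR without Jag1Ndr/Ndr replicate 2 (0.0186). Per transcript length, Acat1 averaged 149.6 RPKM in Jag1Ndr/Ndr livers and 358 RPKM in Jag1+/+ livers, on the deposited scale.

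The stretches just before the start sites of 4 called members whose windows lie outside the gene, and of Fabp1, the member with a response-element match, are shown because many members are textbook PPAR alpha targets. A RefSeq promoter window (GRCm38.p6) was found for 39 of the 46 members. Each sequence below holds the 250 bases before the start site, 5′ to 3′ on the gene's strand, in lower case, with capitals for the single match to a relaxed PPAR response element, a direct repeat of AGGNCA spaced by 1 base, searched on both strands.
Fabp1 (chr6:71199629-71199878, strand +): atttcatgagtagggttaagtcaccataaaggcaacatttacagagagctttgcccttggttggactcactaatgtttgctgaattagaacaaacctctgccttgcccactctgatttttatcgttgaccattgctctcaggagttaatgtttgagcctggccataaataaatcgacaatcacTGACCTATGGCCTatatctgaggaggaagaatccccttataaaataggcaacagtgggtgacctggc
Acsl1 (chr8:46470787-46471036, strand +): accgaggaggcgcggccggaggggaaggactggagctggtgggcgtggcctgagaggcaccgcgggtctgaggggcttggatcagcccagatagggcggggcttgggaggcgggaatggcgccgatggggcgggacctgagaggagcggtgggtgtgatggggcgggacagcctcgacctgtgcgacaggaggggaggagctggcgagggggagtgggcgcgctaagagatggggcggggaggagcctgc
Hadh (chr3:131272102-131272351, strand -): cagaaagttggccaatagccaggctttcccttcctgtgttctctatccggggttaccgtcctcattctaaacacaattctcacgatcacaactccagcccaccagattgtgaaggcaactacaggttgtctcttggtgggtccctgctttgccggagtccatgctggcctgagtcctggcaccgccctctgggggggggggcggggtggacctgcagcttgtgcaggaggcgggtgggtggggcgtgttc
Etfdh (chr3:79628768-79629017, strand -): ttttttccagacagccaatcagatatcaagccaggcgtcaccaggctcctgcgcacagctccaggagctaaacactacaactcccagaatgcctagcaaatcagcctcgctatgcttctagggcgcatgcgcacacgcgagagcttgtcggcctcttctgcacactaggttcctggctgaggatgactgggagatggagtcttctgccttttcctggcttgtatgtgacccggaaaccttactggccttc
Acot1 (chr12:84009252-84009501, strand +): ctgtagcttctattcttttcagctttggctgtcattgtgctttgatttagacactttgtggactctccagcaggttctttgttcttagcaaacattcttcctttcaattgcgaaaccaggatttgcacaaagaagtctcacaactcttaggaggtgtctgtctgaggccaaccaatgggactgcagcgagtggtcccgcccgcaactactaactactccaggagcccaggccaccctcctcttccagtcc
Matches were counted over whole windows, which also held bases after the start site that are not printed (to chr6:71199928 for Fabp1). GC content was taken over the 250 bases before it. Only the Fabp1 window among the members' windows held the relaxed repeat, on the strand opposite to the gene and beginning 67 bases before the start site, and 0.381% of all 32817 promoter windows held it. The strict repeat of AGGTCA spaced by 1 base was in no member window and in 0.0396% of all windows. The extended half-site TCAAGGTCA and the palindrome TGACGTCA were in no member window either, and were in 0.424% and 1.79% of all windows. GC content was 42.8% before Fabp1, 72.0% before Acsl1, 59.6% before Hadh, 54.4% before Etfdh and 48.8% before Acot1, against a median of 52.4% over all windows. A match is a description of letters, and its absence says nothing about binding elsewhere.

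Of the uptake genes, Cd36, the fatty acid translocase of the cell surface, had 53.45, 54.4 and 67.8 CPM in Jag1Ndr/Ndr livers, against 46.6, 38.0 and 42.8 CPM in Jag1+/+ livers. Its groups did not overlap, and its log2 fold change of 0.46 ± 0.16 (SE) missed the threshold (adjusted p = 0.118, edgeR). Macrophages and endothelial cells also carry CD36, and the macrophage marker sum was higher in all Jag1Ndr/Ndr libraries while that of 6 endothelial markers was 450.4 to 489.9 CPM in Jag1Ndr/Ndr livers, against 475.5 to 530.8 CPM in Jag1+/+ livers. The part of those cells in the Cd36 values was not tested. Slc27a2, which takes up and activates very long-chain fatty acids, had 537, 799 and 451.5 CPM in Jag1Ndr/Ndr livers, against 859, 832 and 808 CPM in Jag1+/+ livers (adjusted p = 0.277, edgeR). Its Jag1+/+ libraries lay close together, and Jag1Ndr/Ndr replicate 2 was near them. Fabp1, the liver fatty acid-binding protein and at 2884 RPKM the most abundant member per length in Jag1+/+ livers, had 1273, 1364 and 551 CPM in Jag1Ndr/Ndr livers, against 1898, 1456 and 1182 CPM in Jag1+/+ livers. The Fabp1 groups overlapped, with Jag1Ndr/Ndr replicate 3 lowest (log2 fold change -0.51 ± 0.35 (SE), adjusted p = 0.454, edgeR). None of the 3 uptake genes passed the threshold in edgeR or in DESeq2. At an unadjusted p under 0.05 in edgeR 1 was higher, against 13.0% of all genes tested. With quality weights 1 was lower and 1 higher, against 644 and 950 of the 13819 genes tested.

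Among the 4 acyl-CoA synthetases, 1 fell and 1 rose. Acsl1 (chr8:46471037-46536051), the main long-chain synthetase of hepatocytes, had 435, 576 and 486 CPM in Jag1Ndr/Ndr livers, against 938, 1125 and 1287 CPM in Jag1+/+ livers. The highest Jag1Ndr/Ndr library was well under the lowest Jag1+/+ library, and the means differed 2.24-fold (log2 fold change -1.16 ± 0.21 (SE), adjusted p = 0.0143, edgeR). Without Jag1+/+ replicate 2 or 3 the adjusted p of Acsl1 was 0.0735 or 0.0782. Acsl4 (chrX:142317993-142390802), which prefers arachidonic acid, had 85.0, 51.2 and 102 CPM in Jag1Ndr/Ndr livers, against 27.7, 28.7 and 33.8 CPM in Jag1+/+ livers. Jag1Ndr/Ndr replicate 2 was the lowest of the mutant libraries and still above all Jag1+/+ libraries, and the means differed 2.64-fold (log2 fold change 1.40 ± 0.25 (SE), adjusted p = 0.0146, edgeR). Without Jag1+/+ replicates 1, 2 or 3 the adjusted p of Acsl4 was 0.0751, 0.0780 or 0.0529. Macrophages also express Acsl4, and their marker sums are given above; the part of those cells in the Acsl4 values was not tested.

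Acsl3, a synthetase of the endoplasmic reticulum and lipid droplets, had 36.4, 31.1 and 45.4 CPM in Jag1Ndr/Ndr livers, against 29.5, 26.7 and 27.4 CPM in Jag1+/+ livers. The Acsl3 groups did not overlap, with a small difference (log2 fold change 0.43 ± 0.17 (SE), adjusted p = 0.175, edgeR). Acsl5, found on mitochondria and endoplasmic reticulum, had 335, 285 and 252 CPM in Jag1Ndr/Ndr livers, against 361, 348 and 328 CPM in Jag1+/+ livers and its groups overlapped (adjusted p = 0.465, edgeR). All 4 synthetases together summed to 891.2, 943.8 and 885.6 CPM in Jag1Ndr/Ndr livers, against 1356, 1528 and 1676 CPM in Jag1+/+ livers.

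Of the carnitine shuttle, 4 of 5 tested genes had a log2 fold change below 0 and none passed the threshold in edgeR. At an unadjusted p under 0.05 in edgeR 3 were lower, against 9.50% of all genes tested. DESeq2 and quality weights each called 2 lower, against 5.45% and 4.66% of all genes tested. Cpt1a, the outer-membrane transferase that sets the rate of mitochondrial entry in liver, had 318, 497 and 407 CPM in Jag1Ndr/Ndr livers, against 481.5, 579.9 and 699.9 CPM in Jag1+/+ livers. The Cpt1a groups overlapped at 1 point, Jag1Ndr/Ndr replicate 2 against Jag1+/+ replicate 1 (log2 fold change -0.53 ± 0.23 (SE), adjusted p = 0.221, edgeR). Cpt2, the inner-membrane partner, had 95.1, 102 and 78.5 CPM in Jag1Ndr/Ndr livers, against 129, 125.5 and 154 CPM in Jag1+/+ livers. Slc25a20, the carrier that swaps acylcarnitine for carnitine, had 82.7, 74.2 and 67.0 CPM in Jag1Ndr/Ndr livers, against 102, 87.6 and 93.3 CPM in Jag1+/+ livers. Neither Cpt2 nor Slc25a20 overlapped between the groups, and both missed the threshold (adjusted p = 0.0832 and 0.227, edgeR).

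Crot, the peroxisomal octanoyltransferase that exports shortened chains as carnitine esters, had 485, 690.4 and 359 CPM in Jag1Ndr/Ndr livers, against 944, 964 and 1048 CPM in Jag1+/+ livers. Its Jag1+/+ libraries lay within a narrow band and the Jag1Ndr/Ndr libraries were spread below it, and the log2 fold change of -0.95 ± 0.25 (SE) gave an adjusted p of 0.0586 in edgeR. Crat, which handles acetylcarnitine, was the shuttle gene with a positive log2 fold change (0.27 ± 0.17 (SE), adjusted p = 0.405, edgeR). Cpt1b, the muscle form of the outer-membrane transferase, had 8, 16 and 2 reads in Jag1Ndr/Ndr libraries, against 1, 1 and 2 reads in Jag1+/+ libraries, and was not tested. Of its 50-base words, 93.0% also occur in the transcripts of Gm44502. Striated muscle markers summed to at most 0.532 CPM in Jag1Ndr/Ndr livers and 0.941 CPM in Jag1+/+ livers, with Myh4 and Mb at 0 reads in all libraries.

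All 9 genes of the mitochondrial spiral had a log2 fold change below 0, with a median of -0.51, and 7 of the 9 had all Jag1Ndr/Ndr libraries below all Jag1+/+ libraries, as did 14.2% of all genes tested. Hadh (chr3:131233419-131272101), the short-chain hydroxyacyl-CoA dehydrogenase, was the gene of the spiral past the threshold, with 394, 481 and 339 CPM in Jag1Ndr/Ndr livers, against 842, 749 and 707 CPM in Jag1+/+ livers. All Jag1Ndr/Ndr libraries were well below all Jag1+/+ libraries, 1.89-fold on average (log2 fold change -0.92 ± 0.20 (SE), adjusted p = 0.0286, edgeR). The adjusted p of Hadh was 0.0673 without Jag1Ndr/Ndr replicate 3, between 0.0996 and 0.112 without a Jag1+/+ replicate, and 0.0905 with library totals alone.

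The trifunctional protein, which carries out the later steps on long chains, is built from the products of Hadha and Hadhb. Hadha had 366.5, 400 and 249 CPM in Jag1Ndr/Ndr livers, against 467, 493 and 484 CPM in Jag1+/+ livers. Hadhb had 15.7, 16.9 and 11.0 CPM in Jag1Ndr/Ndr livers, against 22.2, 20.55 and 19.3 CPM in Jag1+/+ livers. Both had Jag1Ndr/Ndr replicate 3 lowest and no overlap, with log2 fold changes of -0.51 ± 0.21 (SE) and -0.51 ± 0.19 (SE) and adjusted p of 0.199 and 0.165 in edgeR. Hadhb is uncertain, since 62.4% of its 50-base words also occur in other transcripts, most of them in those of Gm13910. Per length in Jag1+/+ livers Hadha averaged 120 RPKM and Hadhb 9.37 RPKM.

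The chain-length-specific acyl-CoA dehydrogenases start each turn of the spiral. Acadm, for medium chains, had 183, 218 and 203 CPM in Jag1Ndr/Ndr livers, against 292, 250.4 and 269 CPM in Jag1+/+ livers. Acadl, for long chains, had 306.5, 318.5 and 208 CPM in Jag1Ndr/Ndr livers, against 396, 362 and 353 CPM in Jag1+/+ livers. Neither overlapped between the groups, and their log2 fold changes were -0.43 ± 0.16 (SE) and -0.42 ± 0.20 (SE) (adjusted p = 0.160 and 0.281, edgeR). Acadvl, for very long chains, and Acads, for short chains, overlapped, since Jag1Ndr/Ndr replicate 1 had 452 CPM of Acadvl and 214 CPM of Acads, against Jag1+/+ ranges of 435 to 467 CPM and 179 to 194 CPM. Acadvl is uncertain, with 24.0% of its 50-base words also in transcripts of the overlapping gene Dvl2. Echs1, the short-chain hydratase, had 225, 121.5 and 165 CPM in Jag1Ndr/Ndr livers, against 262, 251 and 284 CPM in Jag1+/+ livers. Acaa2, the thiolase that closes the turn, had 773, 569 and 437 CPM in Jag1Ndr/Ndr livers, against 874, 859 and 840.5 CPM in Jag1+/+ livers. Both were lower in every Jag1Ndr/Ndr library than in every Jag1+/+ library, and both missed the threshold (adjusted p = 0.142 and 0.219, edgeR).

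Auxiliary enzymes prepare unsaturated fatty acids for the spiral. Decr1, the mitochondrial dienoyl-CoA reductase, had 125, 140.5 and 84.5 CPM in Jag1Ndr/Ndr livers, against 243, 193.5 and 201 CPM in Jag1+/+ livers. The gap between the groups was wide, yet the log2 fold change of -0.87 ± 0.22 (SE) narrowly missed the threshold (adjusted p = 0.0508, edgeR). Eci1, the mitochondrial enoyl-CoA isomerase, had 62.1, 62.8 and 43.8 CPM in Jag1Ndr/Ndr livers, against 88.9, 77.9 and 74.05 CPM in Jag1+/+ livers (adjusted p = 0.131, edgeR). Decr2, the peroxisomal reductase, had 111, 87.7 and 71.7 CPM in Jag1Ndr/Ndr livers, against 114, 112 and 118 CPM in Jag1+/+ livers (adjusted p = 0.314, edgeR). Eci1 and Decr2 did not overlap between the groups. Eci2, an isomerase found in mitochondria and peroxisomes, had a log2 fold change of 0.10 ± 0.23 (SE) and overlapping groups.

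Etfdh (chr3:79603788-79628767), the dehydrogenase that passes electrons from the flavoprotein to ubiquinone, had 183, 236.5 and 214 CPM in Jag1Ndr/Ndr livers, against 364, 341 and 372 CPM in Jag1+/+ livers. The Jag1+/+ libraries lay close together, the Jag1Ndr/Ndr libraries all lay below them, and the fall was 1.70-fold (log2 fold change -0.77 ± 0.17 (SE), adjusted p = 0.0331, edgeR). Its adjusted p was 0.0659 without Jag1Ndr/Ndr replicate 3, between 0.111 and 0.143 without a Jag1+/+ replicate, and 0.154 with library totals alone. Etfa, a flavoprotein subunit, had 184, 116 and 153 CPM in Jag1Ndr/Ndr livers, against 231, 195 and 225 CPM in Jag1+/+ livers with no overlap (adjusted p = 0.167, edgeR). Etfb, the partner subunit, had 389, 149.7 and 157 CPM in Jag1Ndr/Ndr livers, against 265, 253.5 and 266.5 CPM in Jag1+/+ livers, with Jag1Ndr/Ndr replicate 1 above all other libraries. Etfb is uncertain, since 67.3% of its 50-base words also occur in the transcripts of Gm45233.

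**Figure D3:**
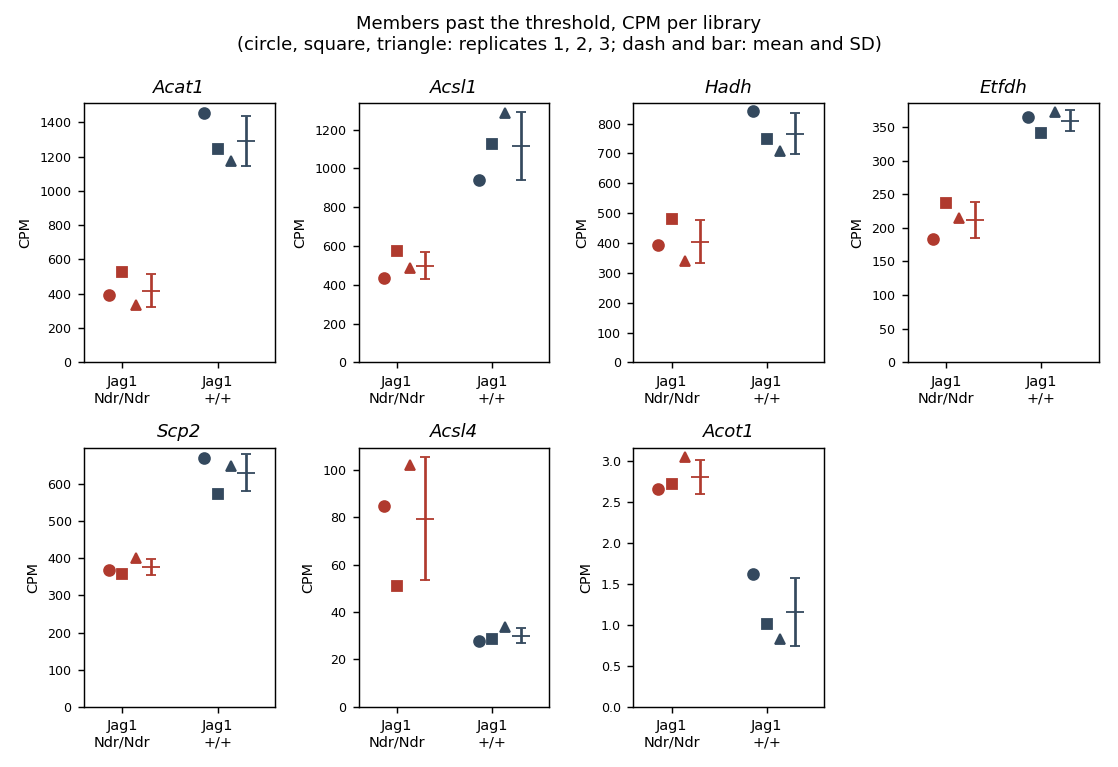
CPM in each library of the 7 members past the threshold, Jag1Ndr/Ndr left and Jag1+/+ right, with group mean and SD. The 3 Jag1Ndr/Ndr libraries lie below the 3 Jag1+/+ libraries for Acat1, Acsl1, Hadh, Etfdh and Scp2 and above them for Acsl4 and Acot1.

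All 6 peroxisomal members had a log2 fold change below 0, with a median of -0.45. Scp2 (chr4:108043830-108144971), whose gene encodes sterol carrier protein and a thiolase for branched chains, had 368, 358 and 399 CPM in Jag1Ndr/Ndr livers, against 670.4, 574 and 647 CPM in Jag1+/+ livers. It fell 1.68-fold (log2 fold change -0.75 ± 0.17 (SE), adjusted p = 0.0342, edgeR), and its Jag1Ndr/Ndr libraries lay close together. The Scp2 value is uncertain, since 41.4% of its 50-base words also occur in other genes' transcripts, all of those in the pseudogene Scp2-ps2. Its adjusted p was 0.0597 without Jag1Ndr/Ndr replicate 3, between 0.114 and 0.161 without a Jag1+/+ replicate, and 0.0895 with library totals alone.

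Acaa1b, a peroxisomal thiolase, had 146, 191 and 77.7 CPM in Jag1Ndr/Ndr livers, against 360, 270.3 and 261 CPM in Jag1+/+ livers (log2 fold change -1.10 ± 0.32 (SE), adjusted p = 0.0729, edgeR). Its near-identical partner Acaa1a had 104, 46.9 and 47.6 CPM in Jag1Ndr/Ndr livers, against 91.5, 86.2 and 77.9 CPM in Jag1+/+ livers (adjusted p = 0.546, edgeR). Acaa1b did not overlap between the groups and Acaa1a did, but reads can be split between the pair. Of the Acaa1b words 35.5% occur in Acaa1a transcripts, and of the Acaa1a words 34% occur in Acaa1b transcripts. With any other gene counted, 46.2% of the Acaa1b words and 35.1% of the Acaa1a words are shared. Hsd17b4, the D-bifunctional protein, had 152.5, 199.5 and 172 CPM in Jag1Ndr/Ndr livers, against 234, 228 and 241 CPM in Jag1+/+ livers, and Ehhadh, the L-bifunctional protein, had 134, 184 and 135 CPM in Jag1Ndr/Ndr livers, against 221, 178 and 181 CPM in Jag1+/+ livers. Pex11a, which drives peroxisome division, had 4.61, 6.75 and 5.33 CPM in Jag1Ndr/Ndr livers, against 8.11, 7.30 and 8.24 CPM in Jag1+/+ livers. Hsd17b4 and Pex11a did not overlap and Ehhadh did, and all 3 missed the threshold (adjusted p = 0.177, 0.222 and 0.325, edgeR).

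**Figure D4:**
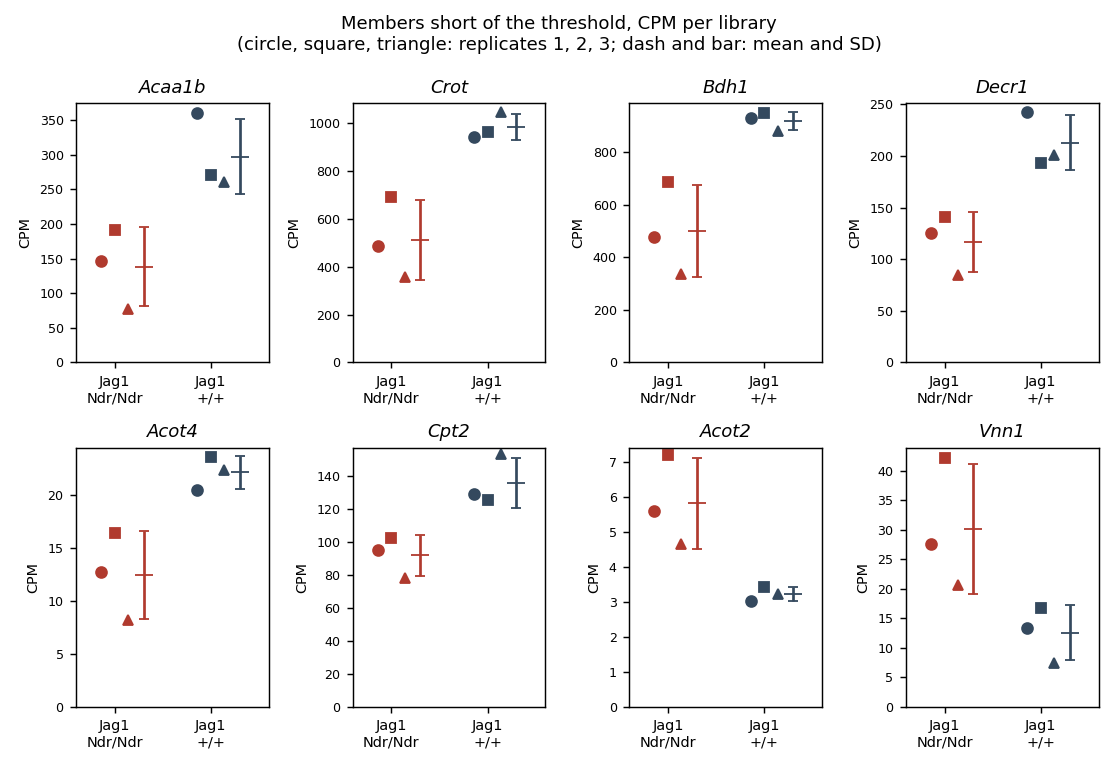
CPM in each library of the 8 members with no overlap between the groups and an adjusted p between 0.05 and 0.1, a range set after the values were seen, Jag1Ndr/Ndr left and Jag1+/+ right, with group mean and SD. The 3 Jag1Ndr/Ndr libraries sit below the 3 Jag1+/+ libraries for 6 of them (Acaa1b, Crot, Bdh1, Decr1, Acot4 and Cpt2) and above them for 2 (Acot2 and Vnn1).

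The carnitine shuttle, the spiral, the auxiliary enzymes, the flavoprotein group, peroxisomal oxidation and the ketone enzymes were joined after their values were seen, which gave 29 tested genes. The role groups left out (uptake, synthetases, thioesterases and fasting-regulated genes) had log2 fold changes on both sides of 0 or all above 0. The values below therefore follow in part from this choice. The median log2 fold change of the 29 was -0.51, against 0.004 over all genes tested. Below 0 were 27 of the 29 (93.1%, against 49.5% of all genes tested), with Crat and Eci2 the exceptions. That count was 26 to 28 of 29 in the alternative fits, except 27 of 30 where Cpt1b was kept by dropping the filter. The Jag1Ndr/Ndr libraries differed among themselves. Replicate 3 was the lowest of the mutant libraries for 18 of the 29 genes and lay below all Jag1+/+ libraries for 27, while replicate 2 was the highest for 18 and lay below all Jag1+/+ libraries for 25. Replicate 1 lay below all Jag1+/+ libraries for 23 of the 29 and above all of them for 5. The matching shares of all genes tested were not computed for single libraries, so these counts only describe the 29 genes.

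Thioesterases release free fatty acids from coenzyme A, and the 5 members lay on both sides of 0, with Acot1 past the threshold. Acot1 (chr12:84009502-84017670), the cytosolic form, had 2.66, 2.71 and 3.04 CPM in Jag1Ndr/Ndr livers, against 1.62, 1.01 and 0.827 CPM in Jag1+/+ livers, from 371 reads in all 6 libraries. It rose 2.49-fold (log2 fold change 1.32 ± 0.32 (SE), adjusted p = 0.0455, edgeR), but was not past the threshold with any of the 6 libraries left out (adjusted p between 0.0567 and 0.194). Acot2, the mitochondrial form, had 5.58, 7.18 and 4.64 CPM in Jag1Ndr/Ndr livers, against 3.01, 3.41 and 3.23 CPM in Jag1+/+ livers (log2 fold change 0.86 ± 0.24 (SE), adjusted p = 0.0690, edgeR). For both, all Jag1Ndr/Ndr libraries were above all Jag1+/+ libraries. Acot3, a peroxisomal form, had 10.1, 18.9 and 2.99 CPM in Jag1Ndr/Ndr livers, against 37.2, 26.8 and 25.2 CPM in Jag1+/+ livers (log2 fold change -1.45 ± 0.53 (SE), adjusted p = 0.142, edgeR). Acot4, also peroxisomal, had 12.8, 16.5 and 8.21 CPM in Jag1Ndr/Ndr livers, against 20.6, 23.6 and 22.4 CPM in Jag1+/+ livers (log2 fold change -0.82 ± 0.25 (SE), adjusted p = 0.0851, edgeR). For Acot3 and Acot4 all Jag1Ndr/Ndr libraries were below all Jag1+/+ libraries. Acot1 to Acot4 share 33.6%, 27.7%, 21.7% and 14.4% of their 50-base words with other transcripts, so their reads can be split with other genes. Acot1 and Acot2 share most with each other (23.7% and 24.5%), and Acot3 and Acot4 share most with genes other than Acot1 to Acot4. Acot8, another peroxisomal form, overlapped, with a log2 fold change of -0.15 ± 0.19 (SE) that was above 0 on RPKM.

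The 4 members listed as fasting-regulated or PPAR alpha-regulated had log2 fold changes above 0, the opposite sign to most enzymes. Many members outside this list are also PPAR alpha targets, and 34 of the 45 tested members had a log2 fold change below 0. The 4 are thus only part of the PPAR alpha targets among the members. Which other members are targets was not marked, and PPAR alpha activity was not tested. None of the 4 passed the threshold in edgeR or with quality weights. At an unadjusted p under 0.05 in edgeR 2 were higher, against 13.0% of all genes tested. DESeq2 called 2 higher, against 1137 of the 13819 genes tested. Vnn1, a pantetheinase, had 27.6, 42.2 and 20.7 CPM in Jag1Ndr/Ndr livers, against 13.4, 16.8 and 7.49 CPM in Jag1+/+ livers (log2 fold change 1.27 ± 0.35 (SE), adjusted p = 0.0616, edgeR). Pdk4, the kinase that shuts down pyruvate dehydrogenase, had 28.9, 95.9 and 28.6 CPM in Jag1Ndr/Ndr livers, against 22.9, 22.1 and 18.4 CPM in Jag1+/+ livers. Both had every Jag1Ndr/Ndr library above every Jag1+/+ library. The Pdk4 value rests on Jag1Ndr/Ndr replicate 2, since its log2 fold change was 1.29 ± 0.45 (SE) with that library and 0.45 without it. Fgf21, a fasting hormone of the liver, had 2.22, 24.4 and 1.17 CPM in Jag1Ndr/Ndr livers, against 0.9265, 4.74 and 2.015 CPM in Jag1+/+ livers. Its groups overlapped, and its log2 fold change was 1.88 ± 1.04 (SE) with Jag1Ndr/Ndr replicate 2 and -0.65 without it. Ppargc1a, a coactivator of oxidative genes, had 20.65, 11.7 and 28.5 CPM in Jag1Ndr/Ndr livers, against 10.2, 15.4 and 14.7 CPM in Jag1+/+ livers with overlap (adjusted p = 0.337, edgeR).

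**Figure D5:**
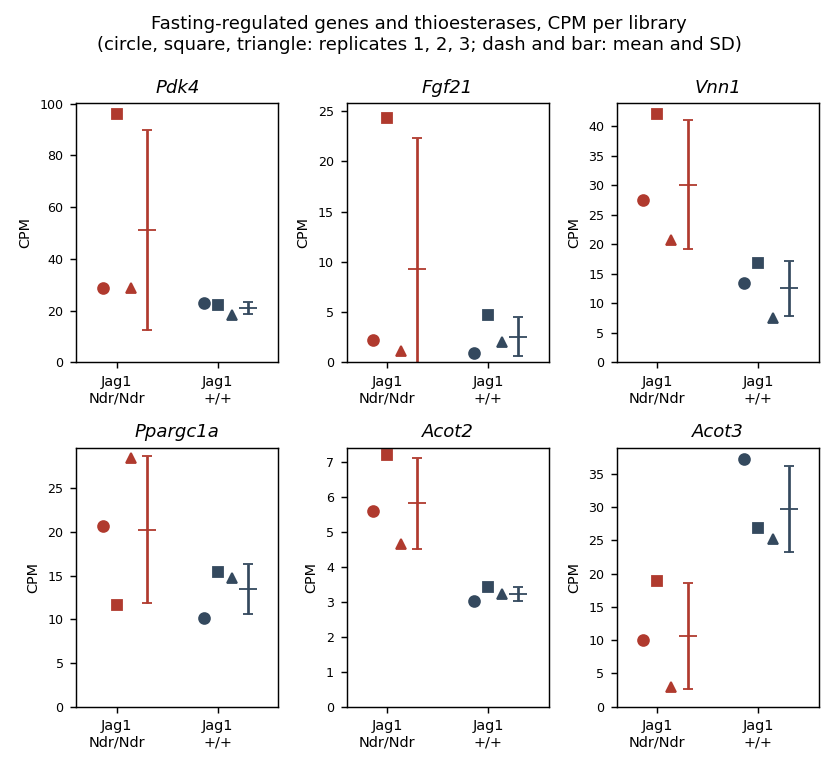
CPM in each library of Pdk4, Fgf21, Vnn1, Ppargc1a, Acot2 and Acot3, Jag1Ndr/Ndr left and Jag1+/+ right, with group mean and SD; the bar of Fgf21 is cut at 0. Jag1Ndr/Ndr replicate 2 stands far above the other 5 libraries for Pdk4 (95.9 CPM) and Fgf21 (24.4 CPM).

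Among 63 further genes of fatty acid handling, 59 were tested. Of these 5 fell (8.47%, against 2.90% of all genes tested) and 2 rose (3.39%, against 4.73%), and 38 had a log2 fold change below 0 (64.4%, against 49.5%), with a median of -0.19. Ppara, the receptor itself, had 79.0, 183 and 136 CPM in Jag1Ndr/Ndr livers, against 275, 347 and 408 CPM in Jag1+/+ livers and fell (log2 fold change -1.37 ± 0.31 (SE), adjusted p = 0.0349, edgeR). Acox2, the peroxisomal oxidase of branched chains, fell (log2 fold change -0.80 ± 0.18 (SE), adjusted p = 0.0353, edgeR). The other genes that fell were Acad10, an acyl-CoA dehydrogenase family member (-1.13), the peroxisomal enoyl-CoA reductase Pecr (-1.02) and the alpha-oxidation lyase Hacl1 (-0.88), all as log2 fold changes. Acot9, a mitochondrial thioesterase, and Fabp4, the fatty acid-binding protein of adipocytes, macrophages and endothelium, rose (log2 fold changes 1.22 and 0.95, adjusted p = 0.0170 and 0.0445, edgeR). Of 5 adipocyte markers, Plin1 and Lep were at 0 reads in all libraries, and Adipoq and Ucp1 had too few reads to be tested. Cidec, a lipid droplet protein that fatty liver also expresses, was the marker tested, with 5.23, 8.84 and 1.33 CPM in Jag1Ndr/Ndr livers, against 0.521, 0.422 and 0.904 CPM in Jag1+/+ livers. Cidec rose (log2 fold change 3.04 ± 0.66 (SE), adjusted p = 0.0297, edgeR), with no overlap between the groups. It had 59, 630 and 25 reads in Jag1Ndr/Ndr libraries, against 9, 13 and 35 reads in Jag1+/+ libraries. DESeq2 and quality weights also called it higher, but it missed the threshold with the replicate block (adjusted p = 0.0582, edgeR). Its values in the other alternative fits are not given. The part of adipocytes in the Fabp4 values was not tested. Reads of Hacl1, Acad10 and Acot9 are uncertain, with 55.6%, 20.4% and 20.2% of their 50-base words found in other transcripts. Ppara, Acox2, Acad10, Pecr, Hacl1, Acot9 and Fabp4 each passed the threshold in 6 to 11 of the 15 alternative fits. Cidec was not part of that count.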

How the data were processed

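PolyA RNA from mouse liver had been made into TruSeq v2 libraries, which do not record strand, and aligned with STAR to mm10, per the submitters' processing notes; the counting step and read length are not given in the sources used here. The deposited table gives, per the file headers, raw read counts per RefSeq gene and RPKM values to which the authors applied TMM factors. From the counts, 93 spike-in and eGFP entries were left out, genes were filtered with filterByExpr, and edgeR 4.0.16 (R 4.3.3) tested genotype by its quasi-likelihood test with TMM scaling, no covariate and Benjamini-Hochberg adjustment over 13819 genes at 0.05. SE is the size of the log2 fold change divided by the square root of F. RPKM served for levels between genes, for the group means of Acat1 and for examples of overlap between the groups. It also served for alternatives with limma 3.58.1 on log2(RPKM + 1) or log2(RPKM + 0.1). DESeq2 1.42.0, other filters, library totals, quality weights, a sex term, the replicate block and leaving out each library were also tried. Words of 50 bases shared between GENCODE transcripts marked genes whose reads could be split. On simulated data with these libraries' means, the test recovered 32 of 100 simulated 2-fold changes and 89 of 100 simulated 4-fold changes, with 8 calls among 13619 unchanged genes. Fewer genes were changed there than were called here, so recovery in these data can differ. Values in every library are given for members past the threshold or with an unadjusted p under 0.05, the 2 most abundant members of each role and a few others; the members and lists were chosen with earlier results of these data known. Promoters are RefSeq windows of GRCm38.p6. Some genes of the pathway are not reported here.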

Additional observations from a re-analysis of the deposited data

How the results depend on the processing

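Counts of genes called higher and lower among all genes, 653 and 401, became 1137 and 753 by DESeq2, 388 and 101 by limma on RPKM with a pseudocount of 1, 427 and 117 with 0.1, and 366 and 230 with the sex term. Library totals alone gave 210 lower and quality weights 644 lower. Members called higher were 5 by DESeq2, 1 with library totals, 1 on RPKM with either pseudocount and 1 with the sex term. Members called lower were 13 by DESeq2, 17 with quality weights, 2 with library totals, 2 with the sex term and 1 on RPKM with either pseudocount. Other pathway genes called higher were 5 by DESeq2, and those called lower were 15 by DESeq2, 12 with quality weights, 3 with library totals, 1 with the sex term and 0 on RPKM with either pseudocount. Leaving out a library gave 155 to 679 genes higher and 127 to 532 lower, 0 to 2 members higher and 1 to 12 lower, and 0 to 5 other pathway genes higher and 0 to 8 lower; the cause of these changes was not tested. The sign turned for Eci2 with quality weights (-0.038), for Acot8 on RPKM with a pseudocount of 1 (0.085) or 0.1 (0.093), and with single libraries left out, over which Eci2 ran between -0.128 (without Jag1Ndr/Ndr replicate 1) and 0.286, Etfb between -0.779 and 0.072 (without Jag1Ndr/Ndr replicate 2) and Fgf21 between -0.649 (without Jag1Ndr/Ndr replicate 2) and 2.633. Single-gene results kept direction and side of the threshold 642 times, newly passed 45 times and no longer passed 85 times. Library totals raised the median log2 fold change by 0.13 and put 74.3% of calls on the higher side, against 62.0%; RPKM raised it by 0.21 and 0.22, with 79.3% and 78.5%. Replicate numbers are shared by the groups; same-numbered libraries' deviations correlated at 0.09, 0.17 and 0.20, and at 0.17, 0.18 and 0.26 with 1 CPM added before the log, each library best with its own number. By the measure used to decide, not all were over 0.1, the answer depends on that measure, and the labels do not say what the numbers mark, so pairing was not established. The replicate block called 843 genes higher and 587 lower, 3 members higher and 8 lower, and 5 and 8 other pathway genes; it kept the 7 member calls and added Vnn1 (adjusted p = 0.00681), Acaa1b (0.0341), Decr1 (0.0355) and Acot4 (0.0484). With these library numbers and spread, 32 of 100 simulated 2-fold changes were recovered. The simulation changed far fewer genes than the 1054 called in these data and drew each gene independently. The share recovered in these data can therefore differ.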

Other observations

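Of 17 citrate cycle genes, which burn the acetyl-CoA that oxidation yields, none passed the threshold by edgeR. At an unadjusted p under 0.05 in edgeR 3 were lower, against 9.50% of all genes tested. DESeq2 and quality weights each called 1 lower, against 5.45% and 4.66% of all genes tested. The log2 fold change was below 0 for 12 of the 17, with a median of -0.09. All 16 peroxisome biogenesis genes had a log2 fold change below 0, with a median of -0.31 and the value nearest 0 at -0.05, closer to 0 than the shift of 0.13 under library totals. Cat, the peroxisomal catalase counted with them, fell, averaging 797 ± 85.45 CPM in Jag1Ndr/Ndr livers and 1407 ± 90.0 CPM in Jag1+/+ livers (SD, n = 3 each). Among 6 tested omega-oxidation genes none passed the threshold by edgeR, by DESeq2 or with quality weights. At an unadjusted p under 0.05 in edgeR 3 were higher, against 13.0% of all genes tested. The log2 fold change was above 0 for 3 and below 0 for 3. Above 0 were the fatty acid hydroxylases Cyp4a10 (1.69) and Cyp4a14 (0.81), known as PPAR alpha targets in mouse liver, and Cyp4a32 (1.52), and below it were Cyp4a31 (-0.19), Cyp4f14 (-0.47) and Aldh3a2 (-0.35), an aldehyde dehydrogenase. Cyp4a10 had 135, 76.0 and 20.3 CPM in Jag1Ndr/Ndr livers, against 34.6, 22.3 and 14.7 CPM in Jag1+/+ livers, and Cyp4a14 had 769, 673 and 303 CPM in Jag1Ndr/Ndr livers, against 319.6, 392 and 282 CPM in Jag1+/+ livers. The groups overlapped for all but Aldh3a2, which was lower in every Jag1Ndr/Ndr library (adjusted p = 0.314, edgeR). Cyp4a10, Cyp4a31 and Cyp4a32 are uncertain, with 30.5%, 21.8% and 46.8% of their 50-base words also in other transcripts.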
